A study of Mus musculus with 6 samples.

Results

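The 10 eicosanoid synthesis genes described here are Pla2g4a, Alox5, Alox5ap, Ltc4s, Lta4h, Alox15, Ptgs1, Ptgs2, Ptges and Cysltr1. They were taken from the deposited count table by gene symbol, and all 10 were found among its 49568 symbols. Whole lungs of 3 TNF+ and 3 TNF- mice were compared by bulk RNA-sequencing, with a single library per mouse. TNF+ mice (labelled TNF-Tg) carry a transgene from which human tumor necrosis factor is made constitutively, and TNF- mice (labelled WT) are littermates without it. All 6 mice were 4 months old, and per the study's methods they were female and bred on a C57BL/6 background. The promoter that drives the transgene is not given in the sources used here. The transgenic mice serve as a model of chronic erosive arthritis with pulmonary hypertension, and the comparison asks how the lung transcriptome differs under lasting TNF.

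Eicosanoids are short-lived lipid signals made from arachidonic acid. Cytosolic phospholipase A2 (Pla2g4a) frees arachidonic acid from membranes. In the leukotriene branch, 5-lipoxygenase (Alox5) works with its activating protein FLAP (Alox5ap) to make leukotriene A4, which Lta4h turns into the neutrophil attractant leukotriene B4 and Ltc4s into leukotriene C4, the first cysteinyl leukotriene. Cysltr1 is a receptor for cysteinyl leukotrienes, which contract airway smooth muscle. In the prostaglandin branch, the cyclooxygenases COX-1 (Ptgs1) and COX-2 (Ptgs2) make prostaglandin H2, and Ptges is the inducible synthase that turns it into prostaglandin E2. Alox15 is a separate lipoxygenase that oxidizes arachidonic and linoleic acid. In lung, leukotriene genes are known mainly from macrophages, mast cells and granulocytes, while cyclooxygenases are also active in platelets, endothelium and other structural cells.

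The total counts per lung lay between 25396923 and 32529408. A level of 3 counts, the detection floor from counting error alone, was 0.0880 to 0.131 CPM (counts scaled to library size). Gm42418 took up 5.22% of TNF+ replicate 1 and at most 0.274% of any other lung. TNF- replicate 1 carried RNA of squamous epithelium, with a summed level of 3563 CPM over 8 markers against 11.3 to 32.6 CPM in the other 5 lungs, and of skeletal muscle (1455 CPM over 5 markers against 13.5 to 32.1 CPM). Without TNF+ replicate 1, 7 of the 10 genes were called in the test described next, with Ptgs2 in place of Pla2g4a, as were 7347 of all genes in place of 9096. Without TNF- replicate 1, 6 of the 10 and 7445 of all genes were called. The surfactant gene Sftpc, which marks lung, had between 286171 and 536883 counts in every library. Levels in whole tissue cannot tell fewer cells of a type from less RNA per cell. The leukocyte gene Ptprc (CD45) had 6888, 5676 and 6812 normalized counts in TNF+ lungs and 2203, 2738 and 2241 in TNF- lungs, with a log2 fold change of 1.43 ± 0.13 (SE, adjusted p = 8.13e-05 by edgeR). All 8 markers of interstitial macrophages and monocytes rose, and their summed level was 3372 to 4161 CPM in TNF+ lungs against 384 to 417 CPM in TNF- lungs.

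In TNF+ lungs the leukotriene synthesis genes Alox5, Alox5ap and Ltc4s and the receptor gene Cysltr1 rose, while Ptgs1 and Alox15 fell and Lta4h, Ptgs2 and Ptges did not pass the test. The test was the quasi-likelihood test of edgeR, with p-values adjusted over 19199 genes by Benjamini-Hochberg, and 7 of the 10 genes passed the cutoff of 0.05. Over all genes tested, 47.4% passed it. Alox5, Alox5ap, Ltc4s, Cysltr1 and Pla2g4a were the 5 that were higher in TNF+ lungs, where 24.0% of all tested genes were higher. Ptgs1 and Alox15 were the 2 that were lower, where 23.4% of all tested genes were lower. With an absolute log2 fold change of at least 1 as a further condition, 5 of the 10 remained called, against 22.5% of all genes. The median absolute log2 fold change was 1.04 over the 10 genes and 0.48 over all tested genes. The groups did not overlap for 7 of the 10 genes, and for 58.7% of all tested genes. These genes were chosen with earlier results of the same lungs known, so the counts are a description.

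**Figure D1:**
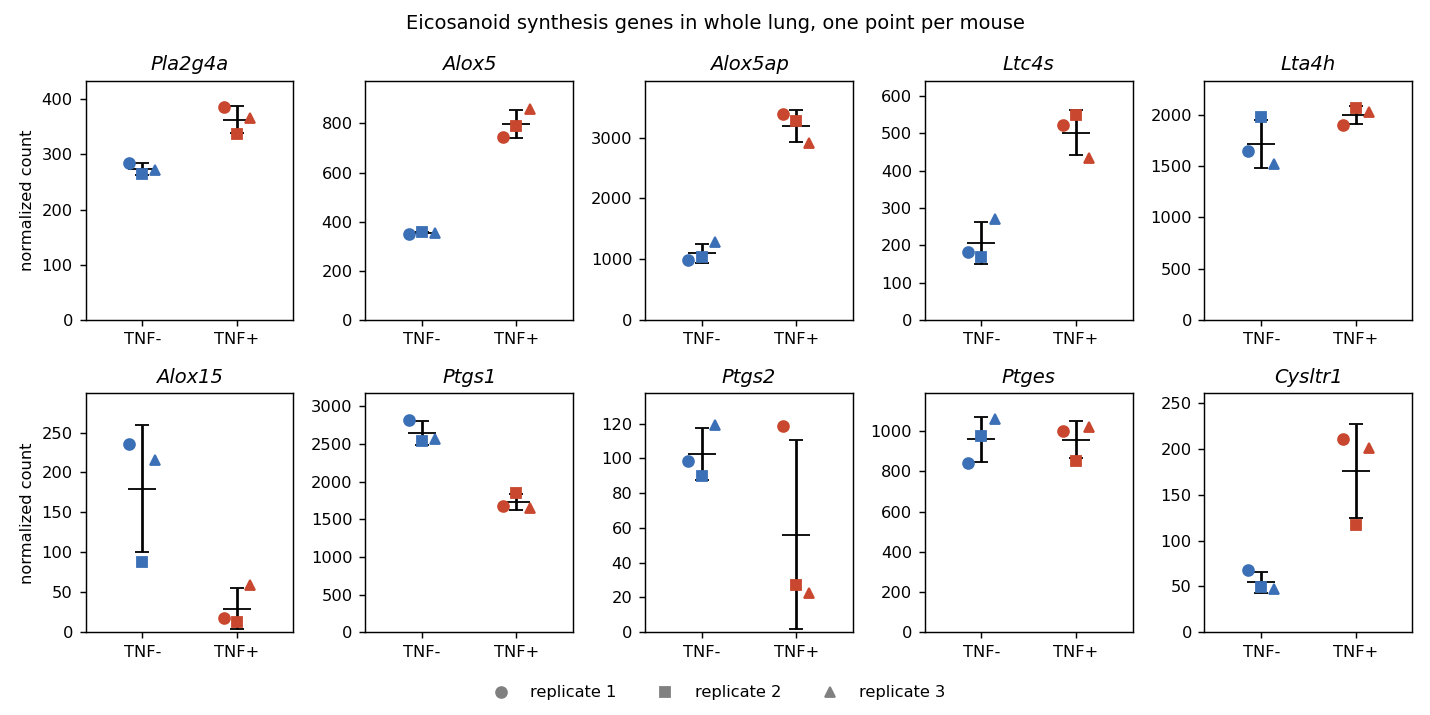
Normalized counts of the 10 genes in each lung (vertical axes start at 0, each gene on its own scale), with TNF- mice in blue and TNF+ mice in red, horizontal bars for the mean of 3 mice and vertical bars for the SD. The groups are apart for Alox5, Alox5ap, Ltc4s, Cysltr1, Pla2g4a, Ptgs1 and Alox15, while for Ptgs2 the TNF+ mouse with replicate number 1 (119) lies with the TNF- mice.

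Alox5ap, the gene of FLAP (ENSMUSG00000060063.9, chromosome 5 of GRCm38, 149264767 to 149288153, plus strand), had 3397, 3275 and 2904 normalized counts in TNF+ lungs and 986, 1035 and 1277 in TNF- lungs. No TNF+ lung came near the TNF- range. The level was 2.90-fold higher, with a log2 fold change of 1.54 ± 0.12 (SE, adjusted p = 4.63e-05 by edgeR). It had the highest mean level per length in both groups, at 74.2 ± 5.97 CPM per kilobase of exon (SD, n = 3) in TNF+ and 25.6 ± 3.62 in TNF- lungs (SD, n = 3), though in TNF- lungs its range overlapped that of Ptgs1. The gene Gm19719 covers 13.3% of its exon bases on the opposite strand, with 0 to 15 counts per lung.

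Alox5, which encodes the enzyme that FLAP serves (ENSMUSG00000025701.12, chromosome 6, 116410077 to 116461178, minus strand), stood at 745, 790 and 859 normalized counts in TNF+ lungs and at 352, 357 and 355 in TNF- lungs. The TNF- mice were nearly alike, and no TNF+ mouse came near them. The level was 2.25-fold higher, with a log2 fold change of 1.17 ± 0.11 (SE, adjusted p = 8.79e-05 by edgeR). Per length its level was lower than that of its partner, at 6.42 ± 0.462 CPM per kilobase (SD, n = 3) in TNF+ and 2.85 ± 0.0238 in TNF- lungs (SD, n = 3). Within a lung, the log2 ratio of Alox5ap to Alox5 was 2.19, 2.05 and 1.76 in TNF+ and 1.49, 1.53 and 1.84 in TNF- lungs. These ratios overlapped between the groups (two-sided exact permutation test, p = 0.2, where 3 mice against 3 cannot go below 0.1).

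Ltc4s, the gene of leukotriene C4 synthase (ENSMUSG00000020377.15, chromosome 11, 50236461 to 50238616, minus strand), had 522, 548 and 433 normalized counts in TNF+ lungs against 181, 168 and 269 in TNF- lungs. The lowest TNF+ lung was above the highest TNF- lung. Its level rose 2.43-fold (log2 fold change 1.28 ± 0.20 SE, adjusted p = 0.00136 by edgeR). Gm26542, on the opposite strand, covers 26.4% of its exon bases, and the strand setting of the counting is not stated. Gm26542 itself had between 4 and 31 counts per lung. Lta4h, whose enzyme competes for the same leukotriene A4, did not pass the cutoff, with 1900, 2068 and 2024 normalized counts in TNF+ lungs and 1643, 1976 and 1520 in TNF- lungs. The groups overlapped for Lta4h (log2 fold change 0.22 ± 0.11 SE, adjusted p = 0.138 by edgeR), and without TNF- replicate 2 it was called (0.33, adjusted p = 0.0433). The log2 ratio of Ltc4s to Lta4h within a lung was -1.86, -1.92 and -2.22 in TNF+ and -3.18, -3.56 and -2.50 in TNF- lungs. All TNF+ ratios were above all TNF- ratios, by 1.08 on average (exact permutation p = 0.1, as low as 3 against 3 mice can go).

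The sequences before the start sites of Alox5 and Ltc4s are shown because both genes rose, along with those of the cyclooxygenase pair, which did not. They come from a RefSeq promoter table on GRCm38.p6, in which 7 of the 10 genes were matched. Each is written 5′ to 3′ on the gene's own strand and ends before the first transcribed base of both RefSeq and GENCODE M21. Capitals mark matches to 7 motifs on either strand: the Ets core GGAAGT, the GC box GGGCGG, the CRE half-site TGACGT, the E-box CACGTG, the C/EBP palindrome TTGCGCAA, the TATA motif TATAAA and an NF-kB motif of GGGA and TTCC parted by any 2 bases. In 250 bases before a RefSeq start, these occur in 19.7%, 32.7%, 6.47%, 6.02%, 0.164%, 12.4% and 1.21% of 32851 promoters.
Alox5 (chr6:116461179-116461428, minus strand): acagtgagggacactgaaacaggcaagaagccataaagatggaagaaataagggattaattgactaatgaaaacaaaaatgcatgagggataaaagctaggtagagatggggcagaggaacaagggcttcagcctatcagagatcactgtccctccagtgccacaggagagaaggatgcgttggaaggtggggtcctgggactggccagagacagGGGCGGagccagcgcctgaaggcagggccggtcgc
Ltc4s (chr11:50238617-50238782, minus strand): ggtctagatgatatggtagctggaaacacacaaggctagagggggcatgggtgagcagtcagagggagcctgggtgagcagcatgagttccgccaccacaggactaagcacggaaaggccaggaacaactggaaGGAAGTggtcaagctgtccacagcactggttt
Ptgs1 (chr2:36230176-36230425, plus strand): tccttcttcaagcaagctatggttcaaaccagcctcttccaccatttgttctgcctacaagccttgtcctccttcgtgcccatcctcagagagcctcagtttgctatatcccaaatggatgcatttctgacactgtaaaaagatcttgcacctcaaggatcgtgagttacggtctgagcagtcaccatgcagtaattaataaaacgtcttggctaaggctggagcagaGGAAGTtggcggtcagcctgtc
Ptgs2 (chr1:150099781-150100030, plus strand): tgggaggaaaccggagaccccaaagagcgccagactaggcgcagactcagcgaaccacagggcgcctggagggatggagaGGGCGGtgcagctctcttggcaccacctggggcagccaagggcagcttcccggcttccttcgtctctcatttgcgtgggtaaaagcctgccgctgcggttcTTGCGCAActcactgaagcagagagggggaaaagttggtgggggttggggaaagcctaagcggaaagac
The stretch before Alox5 held a GC box that begins at position -35 from the RefSeq start. The 166 bases shown for Ltc4s end at the GENCODE start, 84 bases before the RefSeq start, and held an Ets core at -116 from the latter. Ptgs1 had an Ets core at -22. Ptgs2 held a GC box at -170 and the C/EBP palindrome at -69, the rarest of the 7 motifs over all promoters. No other match to the 7 motifs lay in these stretches, of which that of Ltc4s is shorter than the 250 bases behind the shares. The capitals are matches of letters and were not tested as binding sites. Pla2g4a, which also rose, and Lta4h and Ptges, which were not called, were matched too but are not shown. The stretches printed therefore do not compare genes that rose with genes that did not.

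Cysltr1, the receptor gene (ENSMUSG00000052821.3, chromosome X, 106574346 to 106603679, minus strand), had the lowest level per length of the 10 genes in TNF- lungs. Normalized counts stood at 211, 117 and 201 in TNF+ lungs and 67.8, 48.9 and 47.1 in TNF- lungs. The TNF+ mice were spread widely, but all were above the TNF- mice. The rise was 3.22-fold (log2 fold change 1.69 ± 0.28 SE, adjusted p = 0.00176 by edgeR).

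Pla2g4a, which supplies both branches with arachidonic acid (ENSMUSG00000056220.14, chromosome 1, 149829618 to 149961290, minus strand), rose least. It had 386, 337 and 365 normalized counts in TNF+ lungs and 285, 265 and 271 in TNF- lungs. The groups were apart, yet at 0.41 ± 0.12 (SE) the log2 fold change was small and the adjusted p of 0.0267 by edgeR was close to the cutoff. With DESeq2 the adjusted p was 0.0513, and the call was lost in 8 of 15 alternatives, among them leaving out TNF+ replicate 1 or 3 (adjusted p = 0.117 and 0.0729 by edgeR) or TNF- replicate 1 or 2 (0.0828 and 0.0989).

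Ptgs1, the gene of the constitutive cyclooxygenase (ENSMUSG00000047250.13, chromosome 2, 36230426 to 36252272, plus strand), fell. It had 1680, 1849 and 1654 normalized counts in TNF+ lungs and 2826, 2536 and 2574 in TNF- lungs. All TNF+ mice were below all TNF- mice, at a level 1.53-fold lower (log2 fold change -0.61 ± 0.09 SE, adjusted p = 0.00105 by edgeR). In the same lungs 6 of 7 platelet and megakaryocyte markers fell and 1, Pf4, rose, and their summed level was 79.2 to 101 CPM in TNF+ and 149 to 204.5 CPM in TNF- lungs. All 6 endothelial markers fell too (1377 to 1593 CPM against 2744 to 3304 CPM). The part of these cell types in the fall of Ptgs1 was not tested.

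Ptgs2, the inducible cyclooxygenase gene (ENSMUSG00000032487.8, chromosome 1, 150100031 to 150108227, plus strand), was scarce in both groups and was not called. Its counts were 90, 26 and 24 in TNF+ lungs and 103, 94 and 134 in TNF- lungs, or 119, 26.9 and 22.7 against 98.4, 90.1 and 119 normalized counts. TNF+ replicates 2 and 3 were far below every TNF- lung, while TNF+ replicate 1 was at the top of the TNF- range. The log2 fold change was -0.90 ± 0.57 (SE, adjusted p = 0.225 by edgeR), and the call turned on 1 library and on the test. Without TNF+ replicate 1 it was -2.08 (adjusted p = 0.0014 by edgeR), and limma-voom with all lungs called it as well (-1.38, adjusted p = 0.0468). TNF+ replicate 1 was also the highest TNF+ lung for all 8 immediate-early genes looked at (Fos, Fosb, Egr1, Junb, Ier2, Dusp1, Nr4a1 and Zfp36), which are known to respond within minutes to stimulation or handling. It was the highest of all 6 lungs for 7 of them. Their summed level was 50290 normalized counts there, 13800 and 16450 in the other TNF+ lungs, and 13410, 13780 and 16880 in TNF- lungs. Within a lung, the log2 ratio of Ptgs2 to Ptgs1 was -3.82, -6.08 and -6.16 in TNF+ and -4.84, -4.81 and -4.43 in TNF- lungs, and the groups overlapped (two-sided exact permutation test, p = 0.4). The immediate-early list was chosen after the values of Ptgs2 were seen, and its part in the level of Ptgs2 was not tested.

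Ptges, the gene of the inducible prostaglandin E synthase (ENSMUSG00000050737.13, chromosome 2, 30889471 to 30929863, minus strand), differed between the groups by less than the spread between mice. It stood at 1001, 853 and 1020 normalized counts in TNF+ lungs and 842, 974 and 1060 in TNF- lungs. The means were 958.1 ± 91.4 (SD, n = 3) and 958.6 ± 110 (SD, n = 3), and the standard error of the log2 fold change was 0.12 (adjusted p = 0.997 by edgeR). Its log2 ratio to Ptges2, which encodes another prostaglandin E synthase, overlapped between the groups as well (difference -0.10, two-sided exact permutation test, p = 0.7).

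Alox15 (ENSMUSG00000018924.6, chromosome 11, 70344152 to 70352031, minus strand) fell by the largest factor of the 10 genes. It had 13, 12 and 62 counts in TNF+ lungs and 246, 92 and 242 in TNF- lungs, or 17.1, 12.4 and 58.5 against 235, 88.2 and 215 normalized counts. The groups did not overlap, but the mice within each differed severalfold. The level was 5.96-fold lower in TNF+ lungs (log2 fold change -2.58 ± 0.59 SE, adjusted p = 0.00814 by edgeR). Without TNF+ replicate 3 the log2 fold change was -3.62. The log2 ratio of Alox5 to Alox15 was 5.40, 5.94 and 3.86 in TNF+ lungs and 0.58, 2.01 and 0.72 in TNF- lungs, so every TNF+ lung had the larger excess of Alox5 (exact permutation p = 0.1). Beside it, the summed level of 5 fat cell markers (Adipoq, Plin1, Cidec, Lep and Cfd) was 314, 228 and 3694 normalized counts in TNF+ and 3030, 2232 and 4820 in TNF- lungs. TNF+ replicate 3 was the highest TNF+ lung and TNF- replicate 2 the lowest TNF- lung in both measures. Yet TNF+ replicate 3 had more fat cell marker RNA than TNF- replicate 1 and less Alox15. The mast cell genes Cpa3, Mcpt4 and Tpsb2 had the same highest and lowest lungs, while Cma1, Kit and Hdc did not. Mcpt4 had 1, 3 and 10 counts in TNF+ lungs against 45, 27 and 34, and Tpsb2 1, 0 and 5 against 40, 21 and 28. The part of mast cells in the level of Alox15 was not tested. Relative to the fat cell sum, Alox15 overlapped between the groups, with log2 ratios of -4.16, -4.14 and -5.97 in TNF+ and -3.69, -4.65 and -4.48 in TNF- lungs (difference -0.48, two-sided exact permutation test, p = 0.7). That comparison was added after the values were seen, its difference changed to 0.13 without TNF+ replicate 3, and the part of fat tissue in the level of Alox15 was not tested. Of the fat cell markers themselves, 1 of 4 tested was called lower, and Adipoq was not (adjusted p = 0.214 by edgeR).

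**Figure D2:**
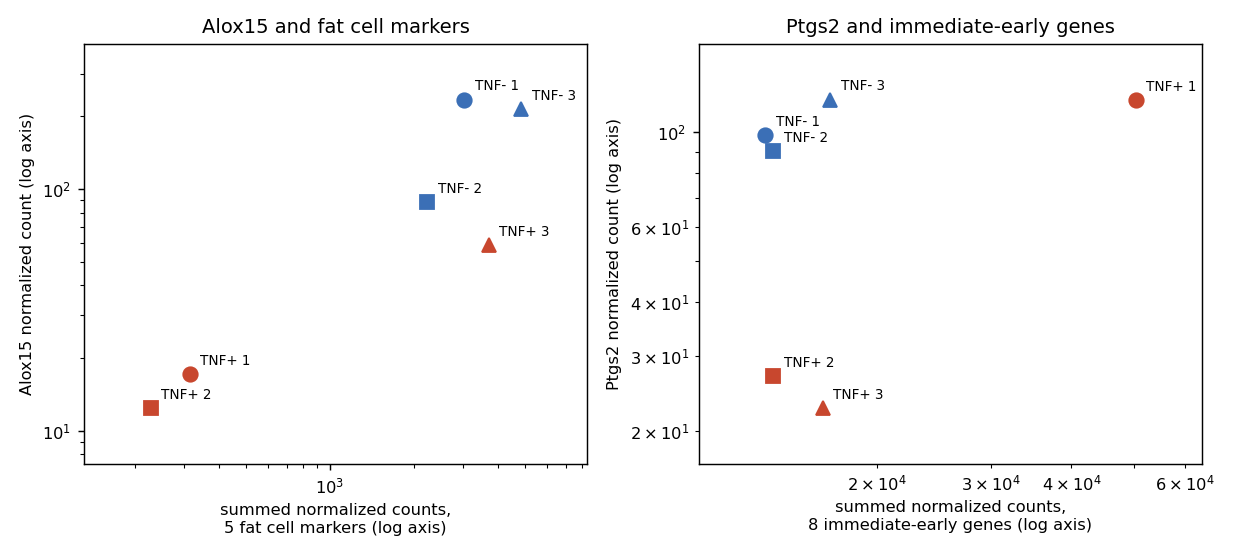
Left, normalized count of Alox15 against the summed normalized counts of 5 fat cell markers in each of the 6 lungs; right, Ptgs2 against the sum of 8 immediate-early genes (all axes logarithmic, TNF- blue, TNF+ red, marker shape for the replicate number). The lungs lowest in Alox15 (17.1 and 12.4) are those lowest in fat cell markers (314 and 228). TNF+ replicate 3 has more fat cell marker RNA than TNF- replicate 1 (3694 against 3030) and less Alox15 (58.5 against 235). The TNF+ lung with 119 normalized counts of Ptgs2 has the highest immediate-early sum (50290). TNF- replicate 3 has as much Ptgs2 (119) at a sum of 16880, and the other lungs have sums of 13410 to 16450 at 22.7 to 98.4 of Ptgs2. Both comparisons were added after the values were seen.

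Set against the leukocyte gene Ptprc of the same lung, the 10 genes were read beside all tested genes. As Ptprc itself rose, the log2 ratio to Ptprc was lower in every TNF+ lung than in every TNF- lung for 83.7% of them, with a median difference of -1.40. For 4 of the 10, Alox5, Alox5ap, Ltc4s and Cysltr1, the log2 ratio to Ptprc overlapped between TNF+ and TNF- lungs. The differences in log2 ratio were -0.27 for Alox5 (two-sided exact permutation test, p = 0.2), 0.11 for Alox5ap (p = 0.7), -0.13 for Ltc4s (p = 0.7) and 0.22 for Cysltr1 (p = 0.7). The signs for Alox5ap and Ltc4s changed when single lungs were left out. The place of Alox5 rested on the choice of Ptprc, since relative to the mean of the leukocyte genes Ptprc, Cd53, Laptm5 and Coro1a every TNF+ lung was below every TNF- lung (difference -0.34, exact permutation p = 0.1), while p for the other 3 genes was 0.4 or more. The other 6 genes were lower in every TNF+ lung, as most genes were (exact permutation p = 0.1 for each, the smallest possible). The log2 ratio of Ptges went from -1.32 ± 0.21 in TNF- to -2.75 ± 0.03 in TNF+ lungs (each SD, n = 3), that of Lta4h from -0.48 ± 0.07 to -1.69 ± 0.21, and that of Pla2g4a from -3.12 ± 0.22 to -4.15 ± 0.07. Ptgs1 changed by -2.05 on this scale, Ptgs2 by -2.71 and Alox15 by -4.23. Without TNF+ replicate 1 the value for Ptgs2 was -3.41, and without TNF+ replicate 3 that for Alox15 was -4.84.

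**Figure D3:**
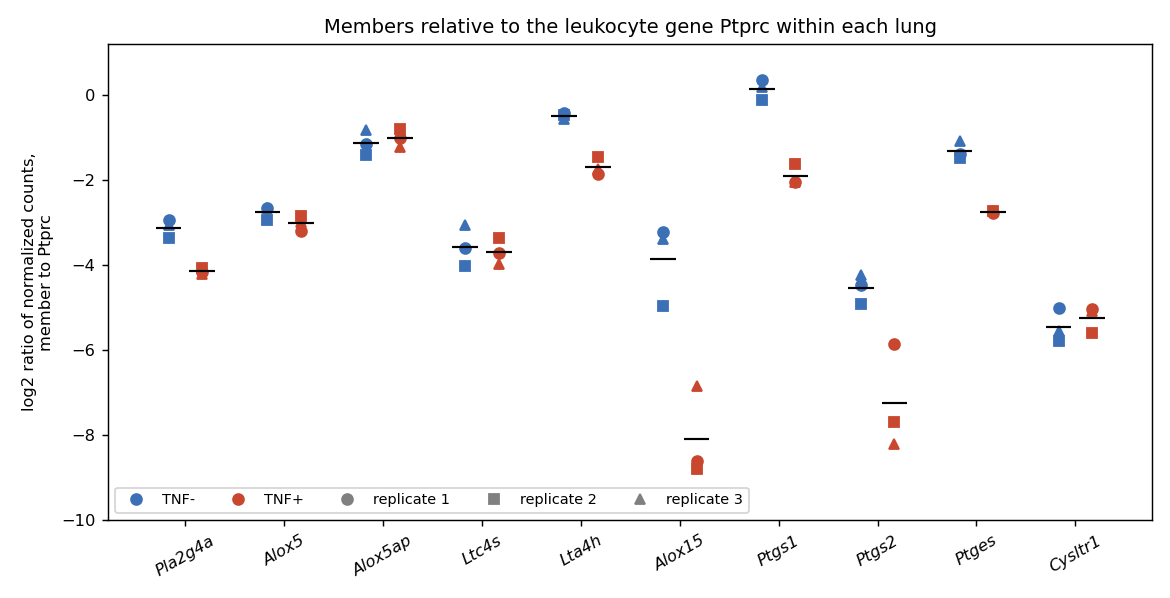
Log2 ratio of the normalized counts of each gene to those of Ptprc within each lung (TNF- blue, TNF+ red, shapes for replicate numbers, black bars for the mean of 3 mice). The colours mix for Alox5, Alox5ap, Ltc4s and Cysltr1 and for the other 6 genes every TNF+ lung lies below every TNF- lung, as for 83.7% of all tested genes.

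Markers of the other leukocytes known for these genes did not all rise. Among mast cell markers 5 of 6 tested fell, with summed levels of 90.7 to 123 CPM in TNF+ and 206 to 228 CPM in TNF- lungs, most of it Kit and Hdc, which other lung cells also express. Cma1 had 2, 2 and 14 counts in TNF+ lungs against 77, 55 and 53, and Cpa3, which was not called, had 1, 2 and 19 against 39, 14 and 29. Among neutrophil markers 5 of 8 fell and 1, Csf3r, rose (66.2 to 104 CPM against 109 to 179 CPM in sum). Of 5 eosinophil markers only Prg2 and Il5ra were tested, and both rose. The sum over the 5 was 16.4 to 38.2 CPM against 1.39 to 3.52 CPM, in TNF+ lungs mostly Prg2. The eosinophil peroxidase gene Epx had 0, 0 and 2 counts against 3, 7 and 10. Of 4 basophil markers only Gata2 was tested, and it fell (log2 fold change -2.05). Of the alveolar macrophage markers 3 rose and 3 fell, and their summed level of 2147 to 3622 CPM against 249 to 318 CPM was in TNF+ lungs mostly Marco. Beyond these, 3 of 5 B cell markers rose (228 to 248 against 107 to 192 CPM in sum). So did 3 of 5 T cell markers (81.1 to 97.9 against 46.5 to 80.0 CPM), and the rest of both lists were not called. The part of any of these cells in the rise of the leukotriene genes was not tested.

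In TNF- lungs the order of mean levels per length ran from Alox5ap through Ptgs1, Lta4h, Ptges, Ltc4s, Alox5, Alox15, Pla2g4a and Ptgs2 to Cysltr1, where the ranges of Alox5ap and Ptgs1 overlapped, as did those of Lta4h and Ptges, Ptges and Ltc4s, Alox5 and Alox15, and Alox15 and Pla2g4a. In TNF+ lungs it ran from Alox5ap through Ltc4s, Ptgs1, Lta4h, Ptges, Alox5, Pla2g4a, Cysltr1 and Ptgs2 to Alox15. There Ltc4s stood at 16.3 ± 1.96 CPM per kilobase (SD, n = 3) against 14.7 ± 0.901 for Ptgs1 (SD, n = 3), with overlapping ranges. Alox15 was at 0.395 ± 0.341 CPM per kilobase there (SD, n = 3), and its range overlapped that of Ptgs2, as the range of Ptgs2 did that of Cysltr1.

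The wider eicosanoid pathway was looked at through 63 other genes listed by role, of which 52 were tested. In TNF+ lungs 18 of these were higher and 14 were lower, and 20 did not pass the cutoff, where of all tested genes 24.0% were higher and 23.4% were lower. Their median log2 fold change was -0.08, against 0.03 for all genes tested.

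Among phospholipases A2, 3 of 12 tested genes rose and 2 fell. The secreted enzyme genes Pla2g2d and Pla2g5 had the largest rises. Pla2g2d, which is known from macrophages and dendritic cells, went from 76.4, 105 and 208 normalized counts in TNF- lungs to 10702, 14056 and 7116 in TNF+ lungs, 81.5-fold higher (log2 fold change 6.35 ± 0.45 SE, adjusted p = 2.53e-05 by edgeR). Pla2g5 had 376, 627 and 445 counts against 5, 12 and 19 (log2 fold change 5.53 ± 0.37 SE, adjusted p = 2e-05). Every TNF+ lung was far above every TNF- lung for both. Pla2g3 (-1.62) and Pla2g1b (-0.59) fell by these log2 fold changes (adjusted p = 0.013 and 0.00823).

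Of 9 genes listed for the last steps of prostanoid synthesis, 3 rose and 1 fell. Hpgds, the gene of the hematopoietic prostaglandin D synthase, had 516, 508 and 445 normalized counts in TNF+ lungs and 38.2, 47.9 and 48.9 in TNF- lungs, 10.8-fold higher (log2 fold change 3.44 ± 0.17 SE, adjusted p = 5.76e-06 by edgeR). Tbxas1, which encodes thromboxane A synthase, rose 4.91-fold (log2 fold change 2.30, adjusted p = 9.89e-06), and Ptgis, which encodes prostacyclin synthase, fell (log2 fold change -0.62, adjusted p = 0.00584). Fam213b, a prostaglandin F synthase gene, rose too. Of 6 tested genes of other lipoxygenases and microsomal glutathione transferases, 1 rose and 3 fell. The rise was in Alox12e, with 12, 25 and 10 counts against 1, 4 and 7 (log2 fold change 2.16, adjusted p = 0.0221). Alox12e passed the filter on low counts only through the TNF+ lungs, where it is high, and the count of 1 rise rests on it. Alox12, known from platelets, fell 3.14-fold (log2 fold change -1.65, adjusted p = 1.75e-05), as most platelet markers did, whose part in it was not tested. Aloxe3, an epidermal lipoxygenase, had 256 normalized counts in the TNF- lung with squamous RNA against 26.4 to 72.9 in the others, and without that lung its log2 fold change moved from -2.02 to -0.86 (adjusted p = 0.122 by edgeR). The call was lost in 7 of 15 alternatives, leaving out any 1 of the TNF+ lungs among them (adjusted p = 0.0827, 0.102 and 0.106).

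Receptors moved in both directions. Both tested leukotriene receptors rose. They were the leukotriene B4 receptor gene Ltb4r1, with 270, 238 and 275 normalized counts against 92.7, 117 and 124 (log2 fold change 1.23 with an adjusted p = 0.000745 by edgeR), and Cysltr2 (0.87, adjusted p = 0.0353), which lost the cutoff in 7 of 15 alternatives. Of 8 tested prostanoid receptors 3 rose and 4 fell. The prostacyclin receptor gene Ptgir had 1003, 1027 and 1118 normalized counts against 122, 126 and 168, 7.56-fold higher (log2 fold change 2.92 ± 0.15 SE, adjusted p = 8.03e-06 by edgeR). For the prostaglandin E2 receptors, Ptger4 rose 6.58-fold (adjusted p = 2.74e-05) and Ptger2 1.91-fold (adjusted p = 0.00228), while Ptger1 fell 3.21-fold (adjusted p = 0.000296). Ptgfr, the prostaglandin F receptor gene, was 2.56-fold lower, and Tbxa2r, the thromboxane receptor gene, 2.46-fold lower (adjusted p = 0.000217 and 0.000574). Ptgdr2, a receptor for prostaglandin D2 on basophils, eosinophils and T helper 2 cells, had 1, 3 and 9 counts in TNF+ lungs and 84, 37 and 20 in TNF- lungs (log2 fold change -3.25 ± 0.73 SE, adjusted p = 0.00747). Its log2 fold change moved to -4.20 without TNF+ replicate 3 and to -2.53 without TNF- replicate 1. Of 3 tested lipoxin and resolvin receptors 2 rose. Fpr2, whose ligands include lipoxin A4, went from 107, 107 and 178 to 2140, 2577 and 2016 normalized counts (log2 fold change 4.10, adjusted p = 9.11e-06 by edgeR). Gpr18 rose as well (1.55, adjusted p = 0.000217), and Cmklr1 was not called (-0.50, adjusted p = 0.103).

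Genes of transport and breakdown were split, with 4 of 12 higher and 4 lower. Hpgd, the gene of the dehydrogenase that inactivates prostaglandins, had 1026, 555 and 1056 normalized counts in TNF+ lungs and 6283, 8154 and 7011 in TNF- lungs, 8.13-fold lower (log2 fold change -3.02 ± 0.25 SE, adjusted p = 5.07e-05 by edgeR). Slco2a1, whose transporter takes prostaglandins into the cell, was 3.43-fold lower (adjusted p = 1.71e-05). Abcc1, which exports leukotriene C4, rose 3.44-fold (adjusted p = 1.75e-05), and Dpep2, a dipeptidase gene whose product turns leukotriene D4 into E4, rose 6.48-fold (adjusted p = 7.71e-06). No TNF+ lung overlapped the TNF- lungs in any of these 4 genes. Beside the falls of Hpgd and Slco2a1, all 6 endothelial, all 5 alveolar type 1, all 5 club and ciliated and all 6 fibroblast and smooth muscle markers were lower. Their summed levels in TNF+ against TNF- lungs were 995 to 1244 against 2890 to 3129 CPM for alveolar type 1, 5113 to 6768 against 14770 to 24260 CPM for club and ciliated, and 592 to 632 against 1280 to 1553 CPM for fibroblast and smooth muscle markers. Among alveolar type 2 markers 2 of 6 were lower and 4 were not called, and among mesothelial markers 2 of 4 were lower and 2 were not called. The part of these cell types was not tested.

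**Figure D4:**
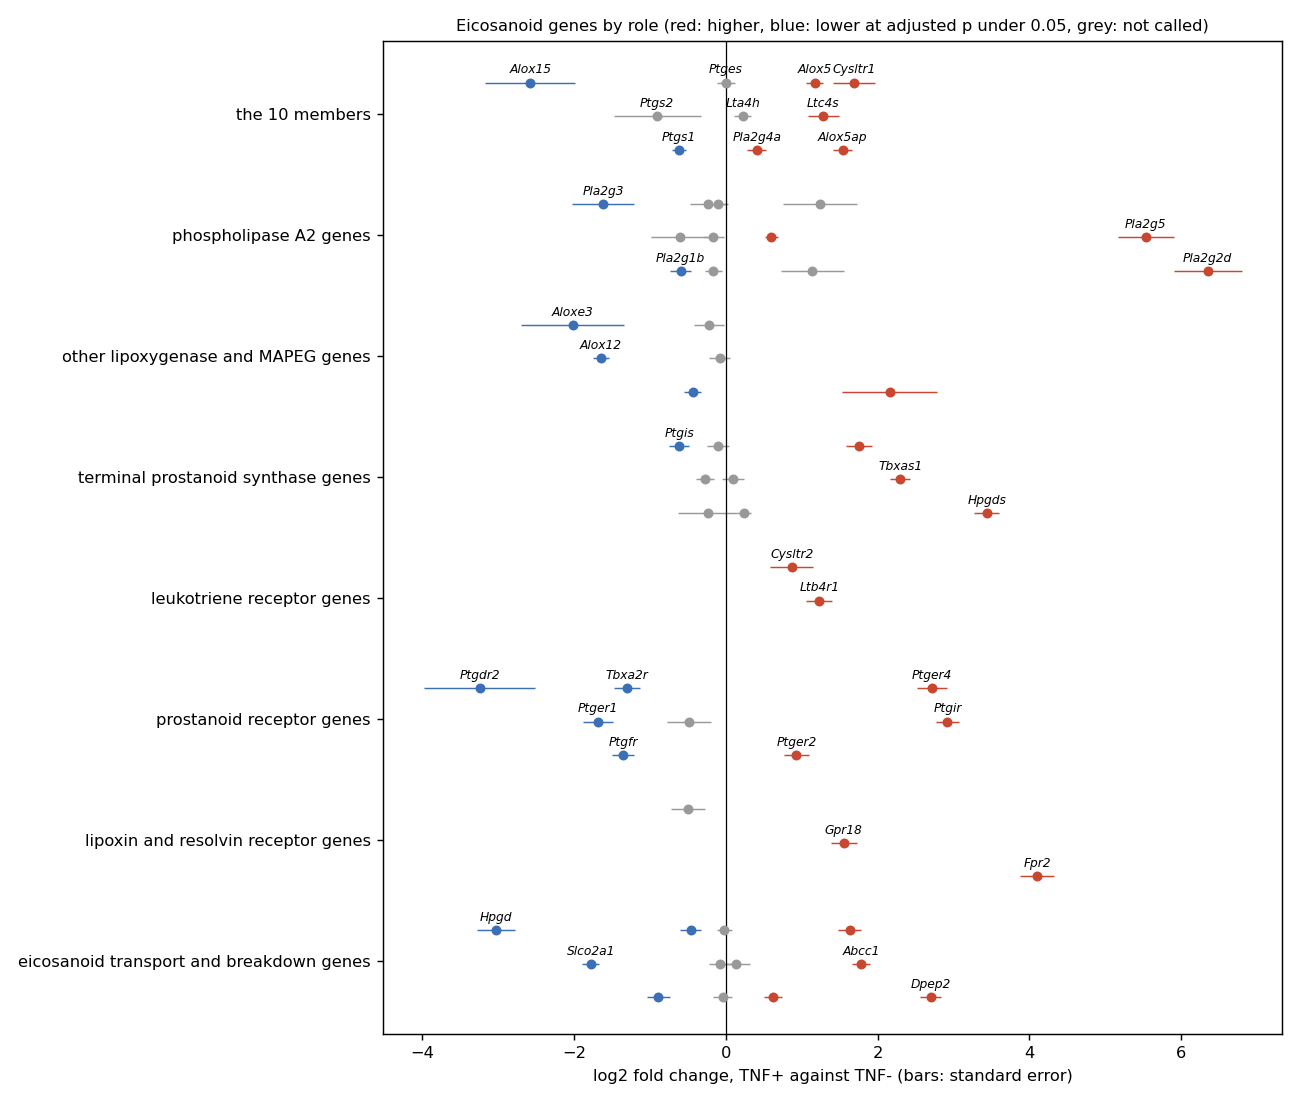
Log2 fold change of TNF+ against TNF- lungs for the 10 genes and the 52 other tested pathway genes, in rows by role (points: fitted value, bars: standard error, red: called higher, blue: called lower, grey: not called, vertical offsets within a row have no meaning). Pla2g2d (6.35) and Pla2g5 (5.53) lie farthest to the right, and Ptgdr2 (-3.25) and Hpgd (-3.02) farthest to the left, in an order that turns without TNF- replicate 1 (-2.53 and -3.13).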

How the data were processed

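Stranded poly(A) libraries of 6 whole lungs (3 TNF+, 3 TNF-) were read as single ends of 100 bases. Per the methods, reads were trimmed by Trimmomatic and aligned to mm10 by STAR (version 2.5.2b). The authors deposited raw counts by gene symbol for each lung, not normalized. The submitters' processing notes name featureCounts and GRCm38.p5, and the strand setting and annotation are not given in the sources used here. Depth per lung and its floor stand in the results.

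Tests ran in edgeR (version 4.0.16, under R version 4.3.3) after filterByExpr and TMM, with genotype as the only term, by the quasi-likelihood test with Benjamini-Hochberg adjustment at 0.05 over all tested genes. A gene can pass this filter through only the group where it is higher, as Alox12e and Pla2g5 (TNF+) and Ptgdr2 (TNF-) did. The SE of a log2 fold change is its absolute value over the root of the F statistic. For normalized counts, each library was scaled to the mean effective (TMM) library size. Log2 ratios added 0.5 to each normalized count, and exact permutation tests over lungs used scipy (version 1.17.1). Exon lengths and positions are from GENCODE M21 on GRCm38. DESeq2 (version 1.42.0) and limma-voom (limma version 3.58.1) were among the alternatives. The programs were also tried on simulated counts with few changed genes and a fixed dispersion, a simpler setting than these lungs.

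The 10 genes, the pathway and the marker lists were chosen with earlier results of these data known. Named pathway genes are, per role, the 2 largest rises and 2 largest falls among called genes whose mean log2 CPM is 0 or more, plus every called receptor. Fam213b, Alox12e, Cmklr1, Prg2, Il5ra, Csf3r, Sftpc, Pf4, Cma1, Cpa3, Mcpt4, Tpsb2, Gata2, Epx, Kit, Hdc, Marco, Adipoq, Gm26542, Gm19719 and the immediate-early genes were named after their values were seen. Same-numbered mice are different animals, and their deviations from the group means had correlations across genes of -0.242 to -0.00429 over the 3 same-numbered pairs, so the numbers were not taken as pairs. Mice of a genotype were not copies of a library (chi-square over its degrees of freedom 53.7 or more for each pair).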

Additional observations from a re-analysis of the deposited data

How the results depend on the processing

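Over the alternatives, between 5 and 8 of the 10 genes were called (reported 7), between 23 and 33 of the pathway genes (reported 32) and between 7347 and 9164 of all genes (reported 9096). Requiring an absolute log2 fold change of at least 1 left 1 of the 10 genes lower (reported 2) and 9 pathway genes lower (reported 14). Alox5, Alox5ap, Ltc4s, Cysltr1, Alox15 and Ptgs1 kept their direction and call in all 15 alternatives each. Leaving out Gm42418, an alternative added after seeing the data, still gave 7 called genes.

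Under a replicate block for the mouse number, 6 of the 10 genes were called, because Pla2g4a was lost (adjusted p = 0.0613 by edgeR), while 30 pathway genes and 7686 of all genes were called. The block also ended the calls of Aloxe3 (adjusted p = 0.066) and Cysltr2 (0.0769), and changed no other call among the 10 genes and the pathway genes named by rule. Ptges, which was not called, changed sign with the block (log2 fold change 0.00069). Without each lung in turn, its log2 fold change lay between -0.110 and 0.0780. In fits without a lung, the log2 ratio of Ptges to Ptges2 ranged from -0.208 to 0.046 (difference between the groups), that of Alox5ap to Ptprc from -0.0293 to 0.267, that of Ltc4s to Ptprc from -0.358 to 0.127 and that of Alox15 to the fat cell sum from -0.787 to 0.125, so their direction depended on single lungs. Scaling by DESeq2's size factors or by total counts moved the median log2 fold change by -0.0249 and -0.0238.

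With 3 mice a group, differences of the size of those of Lta4h and Pla2g4a lie near the limit of what these lungs resolve, and for Ptgs2, with 24 to 134 counts, the call turned on 1 lung and on the choice of test.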
